A study of Procambarus virginalis with 3 samples.

Results

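Isolated accessible regions of marbled crayfish blood cells are described here: short stretches of open chromatin whose nearest accessible neighbours on both sides lie more than 20 kb away. The members were selected on position and length alone. Within the merged peak list of the study, a peak was taken as isolated if it was shorter than 1000 bp, had a peak on either side on its scaffold, and was separated from both by gaps of over 20000 bp, measured between peak borders. This rule was met by 1341 of 89155 peaks, or 1.504% (exact binomial 95% interval 1.43 to 1.59%).

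The list comes from ATAC-seq of hemocytes of *Procambarus virginalis*, an all-female crayfish that reproduces by cloning. It merges libraries from 3 wild-caught animals, each prepared from about 500 µL of hemolymph with a transposase reaction of 20 min. All 3 animals belong to 1 untreated group, and age was not given in the sources used here. Because only merged values were used, no comparison below has an error between animals. Spreads and intervals are over peaks or scaffolds, apart from the Poisson intervals of fragment numbers, and none covers variation between animals. No p-value is given, since peaks of 1 list are not replicates.

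In ATAC-seq, the Tn5 transposase cuts and tags DNA that is not tightly wrapped around nucleosomes, and a peak marks a place where such cuts pile up. In animal genomes, peaks typically lie at promoters, where transcription starts, and at distal elements such as enhancers and insulators, which are bound by transcription factors and can act on genes from a distance. Hemocytes are the circulating immune cells of crustaceans, with roles in phagocytosis, clotting and melanization. Gene models and marker genes of hemocytes were not analysed here, so neither the identity of the cells nor the kind of element behind an isolated peak was checked.

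The position of a peak in its scaffold limited which peaks could qualify. Of all peaks, 39636 were inner peaks, meaning that they had a neighbour on both sides, and 37703 of these were shorter than 1000 bp. The isolated peaks made up 3.56% of the short inner peaks (interval 3.37 to 3.75%). When only scaffolds whose peaks were spread over more than 40 kb were considered, which is the least that the rule requires, they made up 5.18% of 25899 short inner peaks (4.91 to 5.45%). The length limit removed few candidates. It left out 46 of 1387 inner peaks with both gaps over 20 kb.

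Isolated peaks were found on 1043 of the 30666 scaffolds with a peak. A single isolated peak was present on 817 of these scaffolds, 2 on 174, 3 on 35, 4 on 14 and 5 on 3. The scaffolds carried a median of 7 peaks when counted once per isolated peak (interquartile range 4 to 11), and 187 isolated peaks (13.9%) were the middle peak of exactly 3. The peaks of a scaffold with an isolated member were spread over a median of 112903 bp, from 41116 to 670720 bp. Isolation was thus observed on sparsely occupied scaffolds and also on scaffold3136, which carried 42 peaks, the highest number on any scaffold.

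The empty stretches around the isolated peaks exceeded 20 kb on each side by the rule, and the larger of both was often much longer. The smaller of both gaps had a median of 26044 bp (interquartile range 22321 to 32599 bp, maximum 94612 bp), and the larger gap had a median of 40321 bp (31661 to 53832 bp, maximum 192304 bp). For short inner peaks of all scaffolds, the smaller gap had a median of 2110 bp, and the contrast with the members is set by the rule. The distance between the flanking peaks had a median of 68735 bp, of which the isolated peak itself covered a median of 0.263%. The limits on gap and length keep this share low. The larger gap was a median of 1.41 times the smaller one, so that most members lay off the centre of their empty stretch. The sequence of the scaffolds was not analysed here, so the share of undetermined or repeated bases in these gaps, where reads cannot be placed uniquely, is not given.

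Isolated peaks were short by the rule and mostly moderate in strength. They measured 187 bp in the median, with a 95% order-statistic interval of 179 to 199 bp, and the median of all peaks was 205 bp. The middle 50% of them lay between 111 and 325 bp, and the range ran from 64 bp, the shortest length in the list, to 995 bp. Lengths under 100 bp were found for 275 members (20.5%) and lengths of 500 bp or more for 139 members (10.4%). The fold enrichment, which relates the fragments stacked over a peak to the number the peak caller took as background, had a median of 4.08 (interquartile range 3.08 to 6.69, interval of the median 3.91 to 4.20). The lowest value was 2.46 and the highest 198.0. For −log10 q, the median was 6.19 and the quartiles were 2.92 and 17.5. Of all members, 178 (13.3%) had a value under 2, against 13.1% of the other short inner peaks on the same scaffolds and 10.7% of all peaks.

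The depth behind these values was low for many members. With the Poisson model described for the processing, the lowest fold enrichment corresponded to 11 overlapping fragments (exact 95% Poisson interval 5.49 to 19.7), the lower quartile to 14.1 fragments on average along the peak and the median to 18.9. For a count of 19 fragments, the Poisson interval was 11.4 to 29.7. The strongest member corresponded to 966 fragments (interval 906.0 to 1029). Taken as single counts, the intervals of the lower quartile (7.65 to 23.5) and of the median overlapped, whereas that of the strongest member lay far above both. Fragment numbers are means along a peak and not single counts, so these intervals are only a guide. Whether the order of the weak members is resolved was not tested.

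A fold enrichment of at least 4 was reached by 685 isolated peaks, or 51.1% (interval 48.4 to 53.8%), and one of at least 10 by 187, or 13.9% (12.1 to 15.9%). The shares over all 89155 peaks were 53.3% and 15.9%, respectively. Isolated peaks were thus close to the whole list in both respects, and the shares for all peaks include long peaks and peaks at scaffold ends. Among the other short inner peaks on the same scaffolds, 47.2% (45.7 to 48.7%) reached 4 and 12.98% (12.003 to 14.0%) reached 10.

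To ask whether isolation goes along with a different size or strength, the isolated peaks were compared with the 4446 other inner peaks under 1000 bp on the same scaffolds. In length, both sets were nearly the same. The median was 187 bp for isolated peaks and 186 bp for the others, with a ratio of 1.01 (interval 0.946 to 1.07). In fold enrichment, isolated peaks were slightly higher, with a median of 4.08 against 3.87 and a ratio of 1.05 (interval 1.01 to 1.10). These pooled sets were not matched by scaffold. Only 818 of the 1043 scaffolds with an isolated peak also carried a compared peak. The members without a compared peak on their scaffold included the 187 that were the middle one of 3 peaks. The median number of peaks on the scaffold was 7 for isolated and 12 for compared peaks. The interquartile ranges, 3.08 to 6.69 and 3.03 to 6.31, covered almost the same values, and the difference was small relative to the spread of either set (the cumulative plot of fold enrichment and length).

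**Figure D1:**
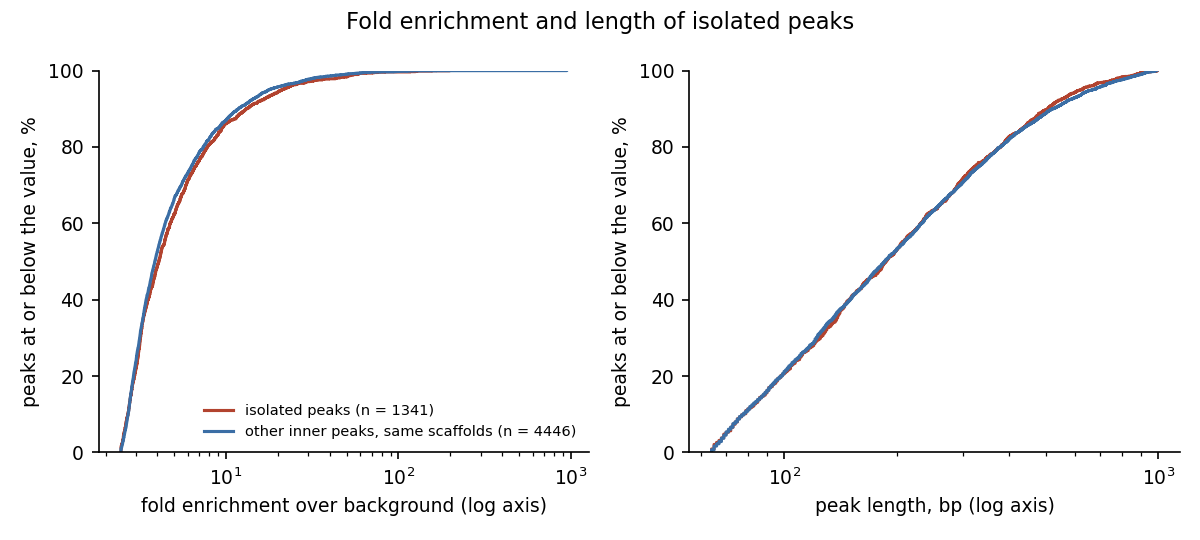
Cumulative share of peaks (in percent) at or below a given fold enrichment over background (left, log axis) and a given length in bp (right, log axis), for the 1341 isolated peaks (red) and the 4446 other inner peaks under 1000 bp on the same scaffolds (blue). The length curves lie on top of each other (medians 187 and 186 bp), and the fold curve of the isolated peaks lies slightly to the right around its middle (medians 4.08 and 3.87).

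The pooled comparison mixes scaffolds, so the sets were also compared within scaffolds. On the 818 scaffolds that carried both kinds of peaks, the median fold enrichment of the isolated peaks was divided by that of the other short inner peaks. The median of this ratio was 1.03 (order-statistic interval over scaffolds 0.991 to 1.08). It was above 1 on 432 scaffolds, or 52.8% (49.3 to 56.3%), and below 1 on 386. The interquartile range of the ratio, 0.746 to 1.69, shows that scaffolds differed widely in both directions. The same ratio for length had a median of 1.04 (0.967 to 1.13). Within scaffolds, the interval of the fold ratio over scaffolds thus included 1. The pooled ratio was also smaller, at 1.03 (0.979 to 1.08), when peaks in the first 5 kb of each scaffold were left out before gaps were measured, which removed 229 members.

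The pooled ratio was then taken against subsets of the compared peaks, which partly overlap, and of these it was highest against peaks with very close neighbours. Among the compared peaks, 1791 had a neighbour within 2 kb. Their median fold enrichment was 3.74, and the isolated peaks were 1.09 times as high (interval 1.04 to 1.14). In contrast, 2135 of the compared peaks were isolated on 1 side only, with a gap of over 20 kb to one neighbour but not to the other. They had a median of 3.897, and the ratio to them was 1.05 (0.999 to 1.09). For the 2311 peaks with neither gap over 20 kb, the median was 3.85 and the ratio was 1.06 (1.01 to 1.11). Within scaffolds, the ratio to peaks with a neighbour within 2 kb was 1.07 on 549 scaffolds, with an interval of 0.994 to 1.14.

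Short inner peaks were then grouped by the distance to their nearest neighbour. The median fold enrichment was lower under 1 kb than in most classes of larger distance (the plot of fold enrichment by gap class). On scaffolds with an isolated peak, the median was 3.65 (3.45 to 3.83) for 477 peaks with a neighbour closer than 500 bp and 3.69 (3.52 to 3.88) for 602 peaks with one at 500 to under 1000 bp. It was 3.94 (3.70 to 4.17) for 1 to under 2 kb and 3.93 (3.80 to 4.16) for 2 to under 5 kb. For 5 to under 10 kb it was 3.97 (3.83 to 4.12), and for 10 to under 20 kb 3.89 (3.66 to 4.05). Isolated peaks with a smaller gap of 20 to under 50 kb had a median of 4.11 (3.94 to 4.25, 1284 peaks). The intervals of all classes from 1 kb up to 50 kb overlapped. Those of both classes under 1 kb overlapped with every class from 1 to under 20 kb, and lay below only that of 20 to under 50 kb.

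**Figure D2:**
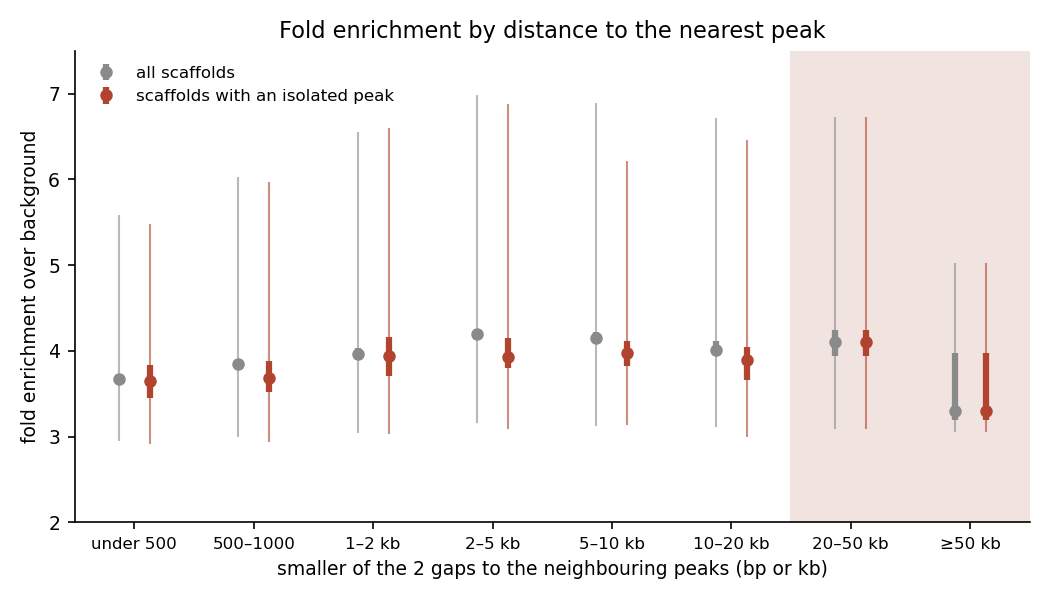
Fold enrichment over background by the smaller of both gaps to the neighbouring peaks, for inner peaks under 1000 bp on all scaffolds (grey) and on the 1043 scaffolds with an isolated peak (red). Points are medians, thick bars 95% order-statistic intervals, thin lines interquartile ranges, and the shaded classes are the isolated peaks, which are the same peaks in both colours. Medians are lowest under 1 kb (3.65 and 3.69 in red) and in the class of 50 kb or more (3.29, 57 peaks).

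Over all scaffolds, the same classes had medians of 3.67 (3.62 to 3.73) under 500 bp, 4.19 (4.12 to 4.25) at 2 to under 5 kb and 4.01 (3.94 to 4.12) at 10 to under 20 kb. A fold enrichment of 10 or more was found for 10.2% (9.43 to 10.96%) of peaks under 500 bp, for 15.9% (15.1 to 16.7%) at 2 to under 5 kb and for 14.0% (12.2 to 16.04%) of isolated peaks at 20 to under 50 kb. The list contained no gap shorter than 257 bp. Whether closer regions were joined into 1 peak, and how much such joining contributes to the low values at short distances, was not tested. The background implied by fold enrichment and p-value had a median of 4.05 fragments for isolated peaks. It was 4.04 fragments for the compared peaks with a neighbour within 2 kb, with the same lowest value of 3.88 in both sets. Like the fragment numbers, these backgrounds rest on means along a peak and are only a guide. They cover peaks with a −log10 p under 200.

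The 57 most remote members, with both gaps of at least 50 kb, had the lowest median of the isolated peaks. It was 3.29 (3.19 to 3.98, interquartile range 3.06 to 5.02), and 12.3% of them reached a fold enrichment of 10 (5.08 to 23.7%). For comparison, the medians were 4.16 (3.91 to 4.41) for 608 members with a smaller gap of 20 to under 25 kb, 4.27 (3.82 to 4.70) for 25 to under 30 kb, 3.98 (3.67 to 4.24) for 30 to under 40 kb and 3.92 (3.26 to 4.40) for 40 to under 50 kb. The intervals of neighbouring classes overlapped. As a description over the 1341 members, the rank correlation of fold enrichment with the smaller gap was -0.06, and that of length with the smaller gap was 0.02. Strong members were found throughout most of the range of gaps (the scatter plot of fold enrichment and gap).

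**Figure D3:**
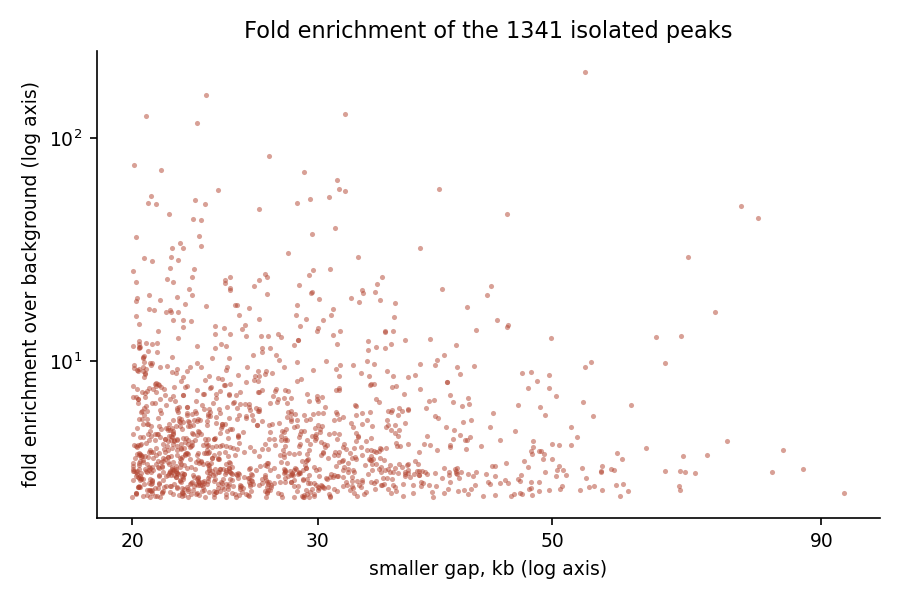
Fold enrichment over background (log axis) against the smaller of both gaps in kb (log axis), each point being 1 of the 1341 isolated peaks. Most points lie at a fold enrichment under 7 and a gap under 33 kb (upper quartiles 6.69 and 32599 bp), and high values occur at short and at long gaps.

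Length and fold enrichment of isolated peaks were positively related, with a rank correlation of 0.386 over 1341 members and of 0.354 over the 4446 compared peaks. Length and strength are read from 1 pileup and cut by 1 calling limit, and the part of this in the relation was not tested. Isolated peaks of 64 to under 100 bp had a median fold enrichment of 3.25 (3.16 to 3.39, 275 peaks), those of 100 to under 200 bp 3.75 (3.57 to 3.95, 435 peaks), those of 200 to under 500 bp 5.05 (4.54 to 5.53, 492 peaks) and those of 500 to under 1000 bp 6.61 (5.65 to 8.53, 139 peaks). Relative to other short inner peaks of the same length class on the same scaffolds, the ratios were 1.01, 1.03, 1.08 and 1.10 from the shortest to the longest class. The interval of each of the 4 ratios included 1, the widest being 0.877 to 1.37 for the longest class.

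**Figure D4:**
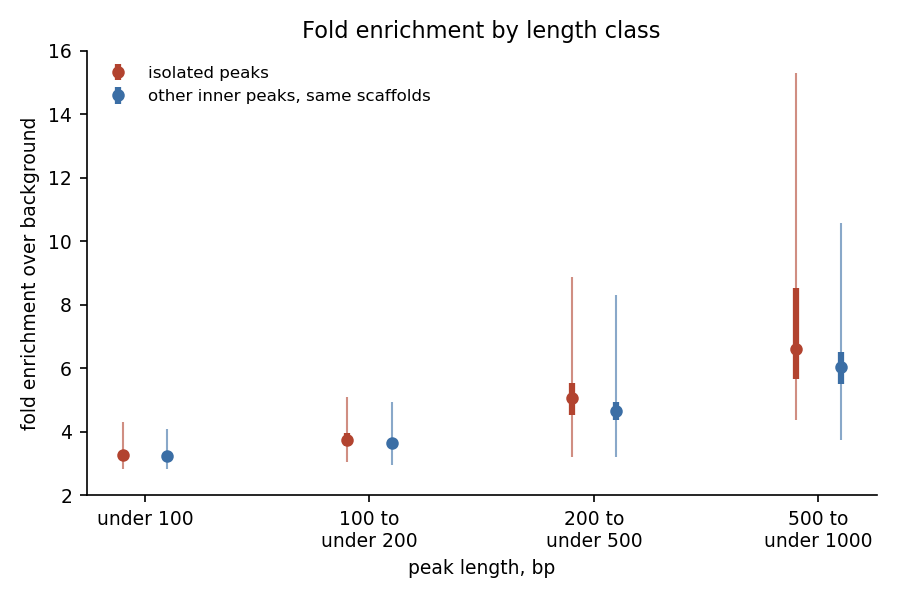
Fold enrichment over background by peak length in bp for isolated peaks (red) and other inner peaks under 1000 bp on the same scaffolds (blue). Points are medians, thick bars 95% order-statistic intervals and thin lines interquartile ranges; the medians rise from 3.25 to 6.61 for isolated peaks and from 3.23 to 6.03 for the others.

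Members on sparse and on crowded scaffolds had similar medians of fold enrichment, with overlapping intervals. A fold enrichment of 10 was reached by 18.7% (13.4 to 25.1%) of members on scaffolds with 3 peaks. With 4 to 6, 7 to 10 and 11 to 42 peaks, the share was 14.2%, 13.6% and 11.4% (8.30 to 15.1%). The intervals of these shares overlapped too. The median fold enrichment was 4.42 (4.09 to 5.08) for the 187 members that were the middle one of 3 peaks, 4.02 (3.79 to 4.37) for 457 members on scaffolds with 4 to 6 peaks, 3.95 (3.67 to 4.38) on scaffolds with 7 to 10 peaks and 3.98 (3.75 to 4.25) on scaffolds with 11 to 42 peaks. By position, 343 members that started 20 to 50 kb from the scaffold start had a median of 4.42 (4.001 to 4.77), and 18.7% of them (14.7 to 23.2%) reached a fold enrichment of 10. The share was 11.4% (8.83 to 14.4%) for 535 members at 50 to 100 kb and 13.4% (10.4 to 16.8%) for 463 members further inside, so that the intervals of the first and the second of these groups did not overlap. The compared peaks showed shares of 13.6% (11.2 to 16.3%), 11.8% (10.1 to 13.8%) and 13.2% (11.8 to 14.8%) at the same positions. At each position, the intervals of members and compared peaks overlapped. The 416 members that had another isolated peak as a neighbour had a median of 3.99 and the other 925 a median of 4.09.

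The peaks flanking the isolated ones were of ordinary strength. Their median fold enrichment was 3.98 (3.86 to 4.15) on the left and 3.92 (3.80 to 4.09) on the right, and flanking peaks could be of any length. An isolated peak was stronger than both flanks in 479 of 1341 cases, or 35.7% (33.2 to 38.4%), and weaker than both in 436, or 32.5% (30.01 to 35.1%). For the compared peaks, the shares were 32.3% (30.9 to 33.7%) and 34.1% (32.7 to 35.5%). The rank correlation of the fold enrichment of members and flanks was -0.03 on the left and 0.03 on the right (1341 pairs each). Between adjacent peaks of the whole list, it was 0.138 for gaps under 500 bp (5126 pairs), 0.0802 for 2 to under 5 kb (9090 pairs) and 0.01 for 20 to under 50 kb (9212 pairs). Adjacent pairs share the caller and the scaffold, and these coefficients are given as a description.

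The flanks of strong isolated peaks were examined next. Of the 187 members with a fold enrichment of at least 10, 132 (70.6%, interval 63.5 to 77.0%) had both flanks under 10, and 33 (17.6%, 12.5 to 23.9%) had both under 4. Among the 577 compared peaks of that strength, the shares were 75.6% (71.8 to 79.0%) and 25.3% (21.8 to 29.1%). For both limits the share was thus lower among isolated peaks, with overlapping intervals, and most peaks of the list are themselves under 10. The stronger flank of the 187 members had a median fold enrichment of 6.85, against 5.82 for all members. A fold enrichment of at least 50 was reached by 22 members, or 1.64% (1.03 to 2.47%), against 0.945% (0.682 to 1.27%) of the compared peaks and 1.17% of all peaks, which lies within the interval of the members. These 22 members had a median length of 459 bp, from 75 to 814 bp, and the median of their stronger flank was 5.25. At the other end, 15 members (1.12%, 0.627 to 1.84%) had the lowest fold enrichment of the list, 2.46, against 0.754% of all peaks, with lengths of 75 to 270 bp.

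The strongest isolated peak lay on scaffold22238 at 140737 to 141489 (753 bp). Its fold enrichment was 198.0, with a −log10 q of 1958. It was the middle one of 3 peaks, 53706 bp from a left neighbour with a fold enrichment of 3.86 and 70550 bp from a right neighbour with 12.002. The second, on scaffold1978 at 137926 to 138356, reached 155.5 over 431 bp, with flanks of 3.26 and 5.28. The third, on scaffold5692 at 166685 to 167290, reached 128.0, and was the only one of the 5 strongest with a flank above 50 (11.5 on the left and 58.1 on the right). It was followed by a peak on scaffold97634 at 33287 to 33669, with a fold enrichment of 125.4 between flanks of 2.92 and 2.54, and by one on scaffold14066 at 79599 to 80043, with 116.5 between flanks of 4.63 and 8.83. These 5 were the only members above 100 and measured 383 to 753 bp. They made up 0.373% of the members (0.121 to 0.868%), against 0.225% of the compared peaks and 0.258% of all peaks. Both of these shares lie within the interval of the members. The highest fold enrichment was 947.2 among the compared peaks and 1490 in the whole list, so such values were not particular to isolated peaks. Positions are 1-based coordinates of the draft scaffolds. Gene models were not used, so whether these regions lie in exons, introns or between genes is not stated.

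**Figure D5:**
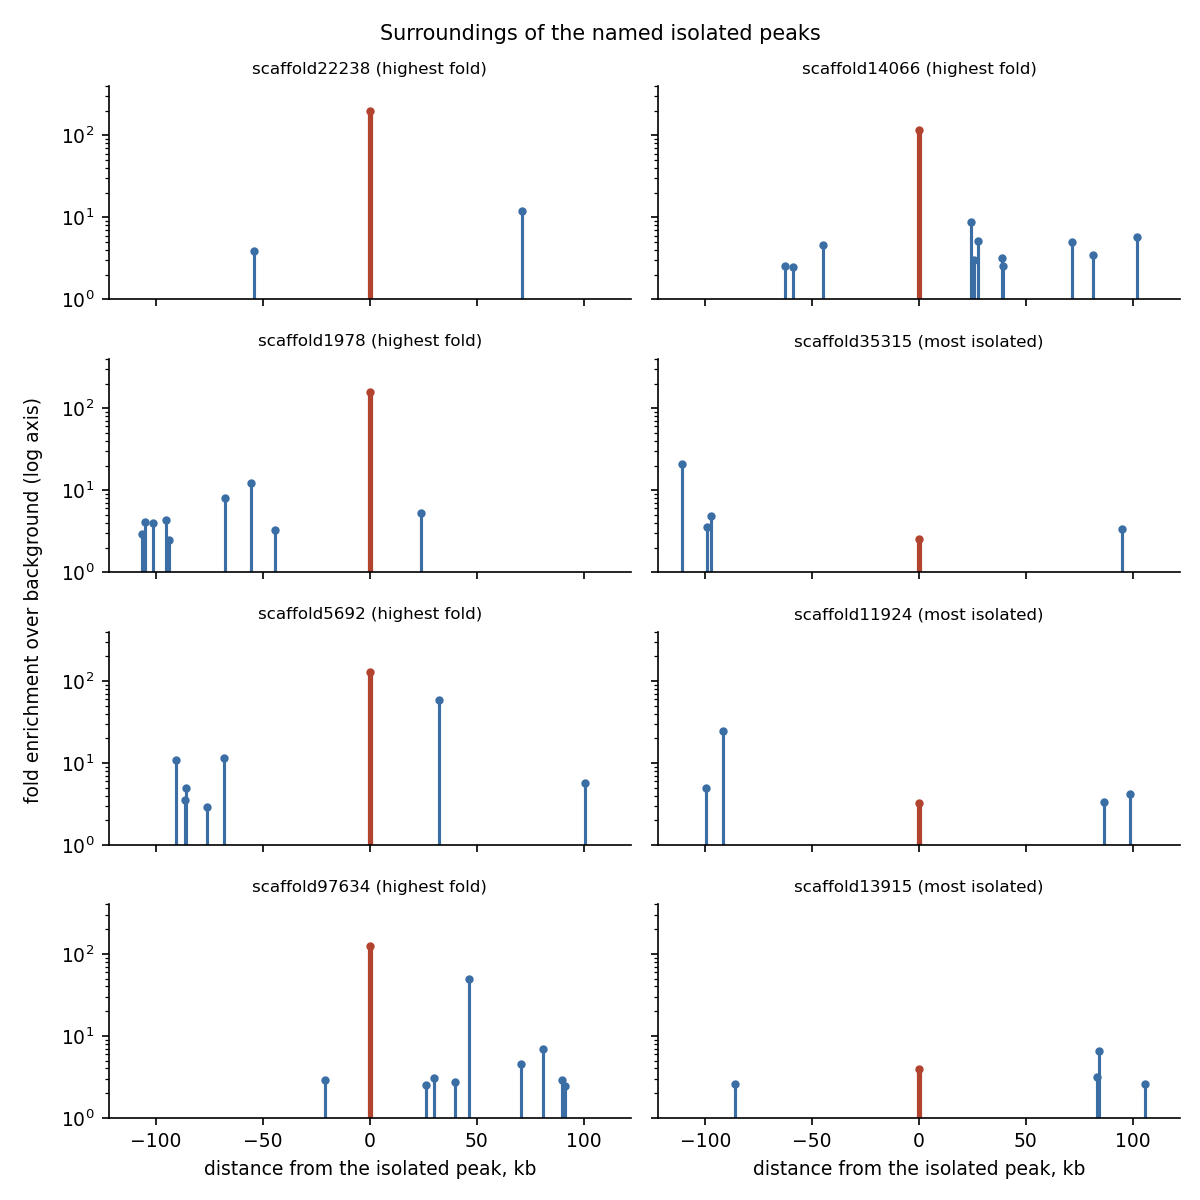
Fold enrichment over background (log axis) of all peaks within 120 kb of the 5 strongest and the 3 most remote isolated peaks, by distance from the isolated peak in kb. Red marks the isolated peak and blue its neighbours. The strongest members (116.5 to 198.0) were chosen for their fold enrichment, so their height above their direct flanks (2.54 to 58.1) largely follows from that choice. The highest of these flanks, 58.1, lies beside the member with 128.0 on scaffold5692. The most remote members (2.54 to 3.98) were chosen by their gaps.

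The 3 most remote members were weak, whereas others with both gaps over 50 kb were strong, such as the strongest member, on scaffold22238. The one with the largest smaller gap lay on scaffold35315 at 162730 to 162828. It was 99 bp long, reached a −log10 q of 1.41 at a fold enrichment of 2.54, and was separated from its neighbours by 97301 and 94612 bp. The next, on scaffold11924 at 303175 to 303277, was 103 bp long with a fold enrichment of 3.27 between gaps of 91587 and 86510 bp. The third, on scaffold13915 at 106643 to 107077, was 435 bp long with a fold enrichment of 3.98 between gaps of 85675 and 82783 bp. In each of these 3 the fold enrichment was below the median of all isolated peaks.

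The scaffolds with the most members carried 5 isolated peaks each and differed in their strength. On scaffold3136, which had 42 peaks in all, the isolated peaks had fold enrichments of 2.89, 2.89, 4.97, 3.13 and 5.88 in order of position and lengths of 65 to 239 bp. The other peaks of this scaffold had a median of 4.94 and reached 105.1, so that 3 of the 5 isolated peaks lay below this median and 2 above it. On scaffold11924, with 17 peaks over positions 1069 to 671788, the isolated peaks had 49.7, 3.27, 21.3, 9.61 and 4.37. Here, the median of the isolated peaks (9.61) was above that of the other peaks (4.58). The strongest of them, at 108184 to 108626, was 443 bp long and lay between gaps of 75495 and 95022 bp. On scaffold23949, with 19 peaks, the isolated peaks had 5.19, 6.73, 2.93, 2.75 and 8.93, against a median of 5.69 for the other peaks. Strong and weak members thus occurred on the same scaffold.

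Isolated peaks could also follow each other, so that a long stretch of a scaffold carried accessible regions only at wide intervals. Of the 1341 members, 416 (31.0%) had another isolated peak as a direct neighbour. The neighbour of a member already has a gap of over 20 kb on the side they share, so the rule itself raises this share. Whether members follow each other more often than this alone would give was not tested. These 416 members formed 163 runs of 2, 26 runs of 3 and 3 runs of 4. One of the runs of 4 lay on scaffold42372. Its members at 127599 to 127835, 161895 to 162155, 185443 to 185699 and 214364 to 214707 were 237 to 344 bp long, and had fold enrichments of 3.88, 2.62, 2.77 and 5.42. They were separated by gaps of 34059, 23287 and 28664 bp, and the run was followed by an empty stretch of 91509 bp.

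Peaks just inside and just outside the gap limit had similar fold enrichments. The 159 members with a smaller gap of at most 21000 bp had a median fold enrichment of 4.25 (3.79 to 5.21), and the 183 short inner peaks just outside, with a smaller gap over 19000 bp up to 20000 bp, had a median of 4.13 (3.68 to 5.07). The member nearest to the limit, on scaffold16989 at 56005 to 56193, had a smaller gap of 20010 bp and a fold enrichment of 2.46, and the peak nearest outside, on scaffold70951 at 20644 to 20947, had a gap of 19989 bp and a fold enrichment of 25.6. At the length limit, the longest member measured 995 bp with a fold enrichment of 3.25, and the shortest peak left out for its length measured 1011 bp with 23.9. The 8 members of 900 bp or more had a median fold enrichment of 6.50, with a wide interval of 3.25 to 21.03. The 46 peaks left out for length had a median fold enrichment of 9.48 (7.22 to 14.7) and a median length of 1331 bp.

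Which peaks counted as isolated depended on the weak peaks of the list. When only peaks with a −log10 q of at least 5 were kept before gaps were measured, 1071 peaks were isolated. Of the original members 482 (35.9%) were among them, and these made up 45.0% of the stricter set. Of the 859 members lost, 585 were below the filter themselves, and the other 274 passed it but lost their last neighbour on one side. The 589 new peaks of the stricter set gained their isolation because weaker neighbours had been removed. Under this filter, the ratio of fold enrichment to other short inner peaks on the same scaffolds was 0.995 (0.934 to 1.06), and the small pooled difference in favour of isolated peaks was not seen. With a −log10 q of at least 2, 1046 of the original members (78.0%) were kept among 1277, and 178 of the 295 lost were below the filter themselves.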

How the data were processed

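According to the study's methods and the labels, reads of 3 hemocyte libraries were trimmed (Trim Galore), mapped to the marbled crayfish assembly (Bowtie2), freed of duplicates (samtools), broad peaks were called (MACS2), and the libraries were pooled. Whether the list is 1 call on pooled reads was not given. Of caller settings, assembly version and any shift for the transposase footprint, each was not given in the sources used here. A shift would move borders by a few bases, far less than 20 kb. The deposited list gives pooled values only: a fold enrichment (a linear ratio of pileup to background), −log10 p and −log10 q as deposited, and a display score that was deposited by the authors and not used here. The −log10 q values are those of the authors' caller. No depth per library was used. Peaks were sorted by scaffold and start, and gaps were measured between borders (Python 3.11.15, pandas 2.3.3, SciPy 1.17.1, functions tested on simulated data).

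Medians have 95% order-statistic intervals, and ratios of medians have intervals from both medians' intervals on the log scale. Shares have exact (Clopper-Pearson) intervals. Fragment numbers assume a Poisson model, a pseudocount of 1 and the lowest implied background (3.88 fragments, from peaks with a −log10 p under 200). Regions named are the 5 strongest and 3 most remote members, the 3 scaffolds with most members and the longest run (ties by lower scaffold number), and peaks next to the limits. Members, comparisons and alternatives were chosen with earlier results of these data known. Sequences and gene models were not analysed here.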

Additional observations from a re-analysis of the deposited data

How the results depend on the processing

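The number of isolated peaks, 1341, followed the gap limit. It was 4796 for gaps over 10 kb and 57 for gaps over 50 kb, and stayed within 1.5 times under the other alternatives. The median fold enrichment of 4.08 was 3.29 for gaps over 50 kb, 4.46 when −log10 q had to reach 2 and 5.998 when it had to reach 5, which follows from removing weak peaks. The fold ratio to other short inner peaks of 1.05 turned to 0.855 for gaps over 50 kb (57 peaks) and to 0.995 when −log10 q had to reach 5, and the cause was not tested. It was above 1 with an interval that included 1 for gaps over 10 kb (1.01, 0.990 to 1.04), without the first 5 kb of scaffolds (1.03, 0.979 to 1.08), against inner peaks of all scaffolds (1.02, 0.988 to 1.06) and against peaks isolated on 1 side (1.05, 0.999 to 1.09), so the small difference is not stable. The length ratio of 1.01 was 1.09 for gaps over 50 kb, with a wide interval of 0.738 to 1.60. It was 0.926 (0.877 to 0.977) against inner peaks of all scaffolds and 0.949 (0.914 to 0.986) for gaps over 10 kb. Both of these intervals lay below 1, so the equality in length also depended on the setting, and the cause was not tested. The other 25 values lay within the interval of the main value or, for counts, within 1.5 times. They include the length ratio for gaps over 10 kb and the 4 fold ratios whose interval included 1. The comparison with peaks isolated on 1 side was added after seeing the data. Leaving out each library was not run, because values are pooled. No paired analysis was possible because there is 1 group and no value per library. Depth limits the weakest members, near 11 fragments.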
